A study of Mus musculus with 3 samples.

Results

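CD8 T cells of the mouse left ventricle are described here in single-cell RNA sequencing of non-myocyte cardiac cells. They were chosen on raw counts of unique molecular identifiers (UMIs, each standing for 1 captured transcript). A barcode first had to hold at least 500 UMIs and 300 detected genes and at most 50% mitochondrial UMIs. A CD8 T cell then had at least 2 UMIs of Cd3d, Cd3e and Cd3g together, at least 1 of Cd8a and Cd8b1 together, none of Cd4 and none of the B cell gene Cd79a. At most 1 UMI of the macrophage genes C1qa, C1qb and C1qc and at most 3 of the collagen genes Col1a1 and Col3a1 were allowed. The rule took 379 of 61034 barcodes: 112 from Control, 154 from HFpEF-scr and 113 from HFpEF-FoxO1-sh. Where 3 values stand together below, they run from Control to HFpEF-scr to HFpEF-FoxO1-sh.

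The study asked what lowering the transcription factor FoxO1 does in a mouse model of heart failure with preserved ejection fraction (HFpEF). All mice were labelled C56Bl6. Control mice ate the control diet for 10 weeks, and their labels name no vector. HFpEF-scr mice ate a High-Fat + L-NAME diet (L-NAME inhibits nitric oxide synthase), listed with 6 weeks, and received an adeno-associated virus with a scrambled hairpin (AAV-scramble-sh), listed with 4 weeks. HFpEF-FoxO1-sh mice received the same diet for 6 weeks and AAV-FoxO1-sh for 4 weeks. Age, sex, the serotype and the promoter of the vector are not named in the labels, so the cells that carry a hairpin are not known. Each group is 1 library made from 4 pooled samples. There is therefore no replicate, no p-value is given, and diet, vector and library cannot be told apart in the step from Control to HFpEF-scr. The HFpEF-scr library enters both comparisons below, so the 2 are not independent. All 95% intervals are exact and cover counting error only. Those on summed UMIs treat each UMI as independent. The UMIs of a gene can cluster in few cells, so these intervals can be too narrow even for the cells sampled.

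CD8 T cells recognise peptides on MHC class I through their T cell receptor, with the CD8 co-receptor made of CD8α and CD8β chains. Naive and central memory cells circulate between blood and lymphoid organs, and they keep the transcription factors Tcf7 and Lef1 and the chemokine receptor Ccr7. Effector and memory cells enter tissues and make chemokines, interferon-γ and granule proteins that kill target cells. FoxO1 is a transcription factor that holds T cells in the naive or resting state and drives genes such as Klf2, Il7r and S1pr1.

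Foxo1 itself, which the hairpin was meant to lower, was checked first. Its counts in CD8 T cells were 51 UMIs in 41 Control cells, 61 in 48 HFpEF-scr cells and 37 in 27 HFpEF-FoxO1-sh cells. In counts scaled to 1000000 non-mitochondrial UMIs (CPM) this was 103, 103 and 74.5. HFpEF-FoxO1-sh stood at 0.726 times (0.469 to 1.11) the level of HFpEF-scr, and HFpEF-scr at 0.995 times (0.675 to 1.47) that of Control. A lower Foxo1 level in the library labelled HFpEF-FoxO1-sh was thus not detectable at this depth in these cells. After thinning each cell to 1000 UMIs the log2 ratio was 0.34, in the other direction. Thinning keeps only a part of these few counts, so that value is less precise than the ratio over all UMIs. In fibroblast barcodes, the most numerous cells here, Foxo1 stood at 73.1, 66.4 and 69.5 CPM, and HFpEF-FoxO1-sh over HFpEF-scr gave 1.05 (1.01 to 1.09). T cells without CD8 transcripts had 87.6, 84.5 and 80.5 CPM of Foxo1, and natural killer cells 45.6, 43.2 and 58.2 CPM. Among the other FoxO factors in CD8 T cells, Foxo3 had 10, 17 and 9 UMIs and Foxo4 had 4, 4 and 8, while Foxo6 had none. With a hairpin, a count of transcripts does not measure the protein, and the labels do not show which cells took up the vector, so that library is named by its label only.

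The CD8 T cells held a median of 4754, 4403 and 4652 UMIs, and a median of 1268, 1211 and 1238 genes. Their summed non-mitochondrial counts were 494395, 594298 and 496512 UMIs, so a gene with 0 UMIs could still stand at up to 6.07, 5.05 and 6.04 CPM (a floor of 3 counts). The median mitochondrial share was 17.7%, 18.2% and 12.4%. Cells above 20% made up 34 of 112, 57 of 154 and 6 of 113 cells, so the library labelled HFpEF-FoxO1-sh stands apart on this measure; the fibroblast barcodes showed medians of 12.6%, 12.3% and 8.57%. No barcode of a CD8 T cell occurred in a CD8 T cell of another library. Scrublet, which scores barcodes against simulated doublets, marked 2, 6 and 2 of these cells, and they were kept.

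A few members carried transcripts of other cells. Barcodes with at least 10 UMIs from any list of genes of another cell type numbered 8, 14 and 7 and are called mixed barcodes below. Erythroid and platelet genes gave the most UMIs, and 4, 4 and 3 barcodes held 8346 of 8443, 4576 of 4745 and 5768 of 5843 of them. Endothelial and mural genes reached 10 UMIs in 2, 9 and 1 barcodes, which held 305 of 356, 1370 of 1422 and 60 of 99 such UMIs. In Control 1 barcode held 427 of the 437 neutrophil UMIs. A single barcode in each of Control and HFpEF-FoxO1-sh held 267 of 273 and 490 of 498 dendritic cell UMIs. Of the mixed barcodes 2, 6 and 2 were those that Scrublet marked. Results that rest on them are given with and without them. The values without them, alone or together with the limit of 20% mitochondrial UMIs, were added after the data had been seen.

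The label was checked against the marker genes. Cd8b1, the β chain, was found in 103 of 112, 139 of 154 and 99 of 113 cells, and Cd8a, the α chain, in 83, 105 and 79. Both chains were seen in 74, 90 and 65 cells, and there were 2.26, 2.32 and 2.26 Cd8b1 UMIs for each Cd8a UMI. A CD8αα-only population would lack Cd8b1; the cells with Cd8a alone were 9, 15 and 14. These genes were part of the rule, and in mm10 they lie close together on chromosome 6 (Cd8b1 at 71322788 to 71337494, Cd8a at 71373427 to 71379173, both on the plus strand). Cells just inside the rule, with 1 CD8 UMI, numbered 7, 23 and 12, and those with exactly 2 CD3 UMIs 2, 8 and 5. Just outside it lay 2, 2 and 3 barcodes with 1 CD3 UMI, and 3, 6 and 2 barcodes with both Cd4 and CD8 UMIs. Foxp3, of regulatory T cells, Ms4a1, of B cells, and Clec9a, of dendritic cells, had 0 UMIs in all 3 libraries. Ncr1, of natural killer cells, had 1, 0 and 11 UMIs, each time in at most 1 cell.

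Dapl1 and Lef1, which the rule did not use, were both frequent. Dapl1, a gene of naive CD8 T cells, was found in 43.8%, 45.5% and 43.4% of cells, at 390, 424 and 387 CPM. In fibroblast barcodes, which should lack it and were deeper (a median of 7062, 6696 and 7199 UMIs), the shares were 0.0751%, 0.106% and 0.118%. After thinning to 1000 UMIs per cell, Dapl1 was left in 20.5%, 24.0% and 20.4% of CD8 T cells. Lef1, a transcription factor of naive T cells, was found in 75.0%, 68.8% and 64.6% of the cells at 427, 451 and 469 CPM, against 0.708%, 0.743% and 0.820% of fibroblast barcodes. Its share of cells was lower from library to library while its CPM was not, so no order is read from it. Both markers outside the rule thus stood at shares far above those in fibroblast barcodes.

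Since FoxO1 is the factor the study targeted, the promoters of the naive genes were searched for GTAAACA, the core of the FoxO recognition sequence, on both strands of the 300 bases around each start in RefSeq (GRCm38.p6). It occurred at 1095 of 27025 genes, or 4.05%. Of 18 genes of the naive and central memory list with a promoter in the table, 2 held it, Dapl1 and Tcf7. Both are shown, on the strand of the gene, with the match in capitals. The Dapl1 stretch is chr2:59484403-59484652 on the plus strand, the 250 bases before the start, with the match beginning 164 bases before it. The Tcf7 stretch is chr11:52282576-52282695 on the minus strand, from 100 bases before to 20 after the start, with the match at base 2 after it.
Dapl1: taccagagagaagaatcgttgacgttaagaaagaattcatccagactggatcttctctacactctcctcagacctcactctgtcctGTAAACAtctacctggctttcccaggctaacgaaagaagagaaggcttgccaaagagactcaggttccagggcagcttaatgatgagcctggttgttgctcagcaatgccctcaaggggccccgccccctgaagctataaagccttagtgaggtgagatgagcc
Tcf7: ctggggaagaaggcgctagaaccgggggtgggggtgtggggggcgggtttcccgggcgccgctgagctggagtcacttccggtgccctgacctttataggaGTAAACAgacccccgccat
Of 16 FoxO1 target genes of T cells, 3 held the motif (Tcf7, Txnip and Btg1), and of 27 cytotoxic effector genes 1 did (Prdm1). A match describes the letters only. Dapl1, Tcf7, Txnip and Btg1 did not differ past the fold used below in either comparison.

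CD8 T cells made up 0.577% (0.475 to 0.694), 0.725% (0.615 to 0.848) and 0.555% (0.457 to 0.666) of the barcodes. The ratio of HFpEF-scr over Control was 1.26 (0.978 to 1.62), an interval that includes 1. Between HFpEF-FoxO1-sh and HFpEF-scr it was 0.765 (0.595 to 0.982), an interval below 1. The mitochondrial share moved with it: with at most 20% mitochondrial UMIs the ratios were 1.08 and 0.946, and the lower share in the library labelled HFpEF-FoxO1-sh was then within counting error. Among all gated T cells, CD8 T cells were 33.4% (28.4 to 38.8), 33.6% (29.2 to 38.1) and 27.8% (23.5 to 32.4), with ratios of 1.00 (0.782 to 1.29) and 0.828 (0.643 to 1.06). T cells without CD8 transcripts made up 1.13%, 1.41% and 1.43% of barcodes, with ratios of 1.24 (1.04 to 1.48) and 1.02 (0.864 to 1.20). Natural killer cells made up 0.433%, 0.499% and 0.344%, with ratios of 1.15 (0.858 to 1.55) and 0.689 (0.502 to 0.940). The pooling of 4 samples hides how far single mice differ, so these shares have no error between animals.

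Within each library the CD8 T cells were spread between 2 patterns. Ccl5, a chemokine of memory and effector T cells, was found in 44 of 112 Control cells (39.3%, 30.2 to 49.0), 63 of 154 HFpEF-scr cells (40.9%, 33.1 to 49.1) and 45 of 113 HFpEF-FoxO1-sh cells (39.8%, 30.7 to 49.5). In fibroblast barcodes its shares were 0.461%, 0.763% and 0.574%, and in thinned CD8 T cells 32.1%, 37.0% and 36.3%. The intervals of the 3 shares of Ccl5 cells overlapped almost wholly. Cells with at least 1 UMI of the naive genes Dapl1, Lef1 or Ccr7 were 83.0% (74.8 to 89.5), 77.9% (70.5 to 84.2) and 74.3% (65.3 to 82.1), and 48.2%, 57.8% and 54.0% after thinning. The unthinned and thinned orders differ, so no order is read from these shares. Cells with only naive genes made up 59.8%, 57.1% and 58.4%, and cells with only Ccl5 16.1%, 20.1% and 23.9%. Cells with both made up 23.2%, 20.8% and 15.9%, and 1, 3 and 2 cells had neither. After thinning, cells with only Ccl5 were 24.1%, 29.2% and 29.2%, and cells with both 8.04%, 7.79% and 7.08%. Cells with neither then numbered 31, 20 and 19. The sizes of these classes thus depend on depth, and no order of the libraries is read from them. Without thinning, the Ccl5 cells held a median of 1.5, 1 and 0 naive gene UMIs, against 5.5, 5 and 6 in the other cells.

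**Figure D1:**
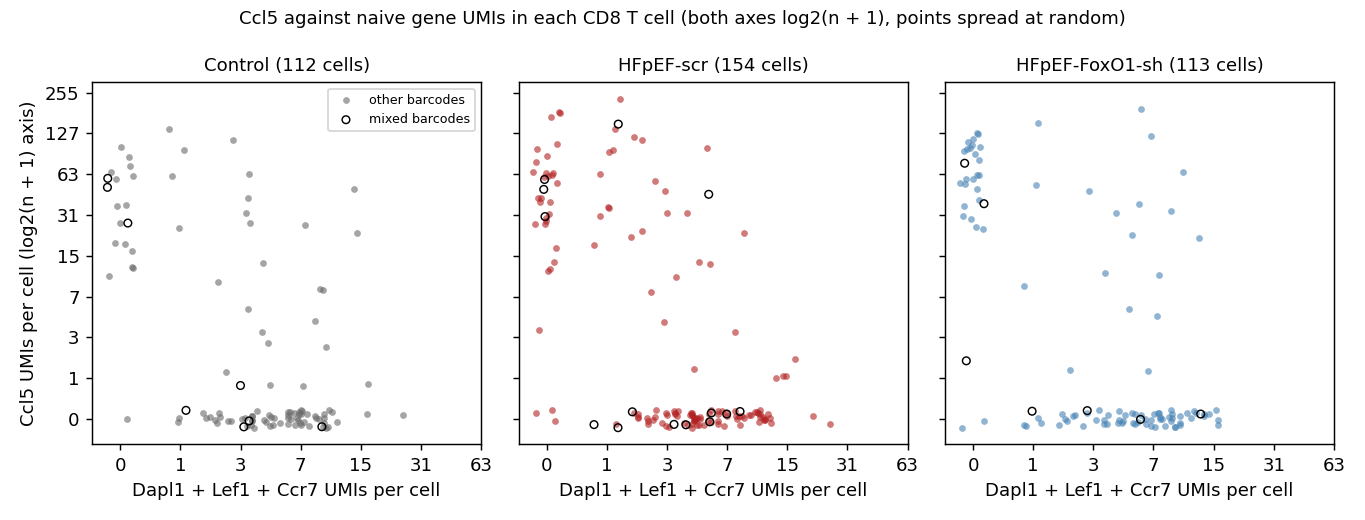
UMIs of Ccl5 (vertical axis) against the summed UMIs of Dapl1, Lef1 and Ccr7 (horizontal axis) in each CD8 T cell, 1 panel per library, both axes on a log2(n + 1) scale with random spread added to the points; open circles are mixed barcodes. The 44, 63 and 45 cells with Ccl5 lie above the row at 0, many of them at 0 to 1 naive gene UMIs, and the other cells lie along the bottom at a median of 5 to 6.

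The genes that went with Ccl5 were those of effector and memory cells. Each library was split by Ccl5 and compared within itself, as a description, since Ccl5 chose the sides. Of 2211 genes with at least 20 UMIs in every library, 116 were at least 1.5-fold higher and 34 at least 1.5-fold lower in Ccl5 cells in 3 of 3 libraries. Gzmb, a granule protease, had 39, 54 and 32 UMIs in Ccl5 cells and 0 in the other cells of each library. Xcl1, a chemokine that attracts cross-presenting dendritic cells, had 56, 129 and 68 UMIs there against 0, 1 and 0. Ifng, which encodes interferon-γ, had 130, 208 and 92 against 1, 12 and 0.

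S100a4, a calcium-binding protein of memory and migrating T cells, had 235, 531 and 246 UMIs in Ccl5 cells against 0, 9 and 35. Cxcr3, the receptor for interferon-induced chemokines, had 17, 25 and 26 against 0, 1 and 0, and Tbx21, the effector transcription factor T-bet, 11, 20 and 12 against 1, 0 and 0. The same cells held more of the killer-lectin receptor Klrk1, the interleukin-2 receptor chain Il2rb (log2 CPM ratios of 2.67, 3.37 and 2.66), the memory marker Ly6c2 (2.60, 2.05 and 2.76) and the granule protein Nkg7 (1.70, 2.13 and 2.47). Ly6c2 was found in 40.2%, 40.3% and 39.8% of all CD8 T cells, shares near those of Ccl5.

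The cells without Ccl5 held more Igfbp4, Dapl1 and Lef1. Igfbp4, a binding protein of insulin-like growth factors found in naive T cells, had log2 CPM ratios of -2.85, -2.65 and -3.12 in Ccl5 cells over the others. For Dapl1 they were -2.11, -1.69 and -1.19, and for Lef1 -1.0, -1.59 and -2.04. Tcf7, at -0.01, -0.98 and -0.96, and Ccr7, at -0.16, -1.60 and -1.34, were near 0 in Control and lower in Ccl5 cells of the other libraries. Foxo1 ran the same way in each library, at 68.4 against 131 CPM, 89.4 against 113 and 71.1 against 76.8, on few UMIs.

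**Figure D2:**
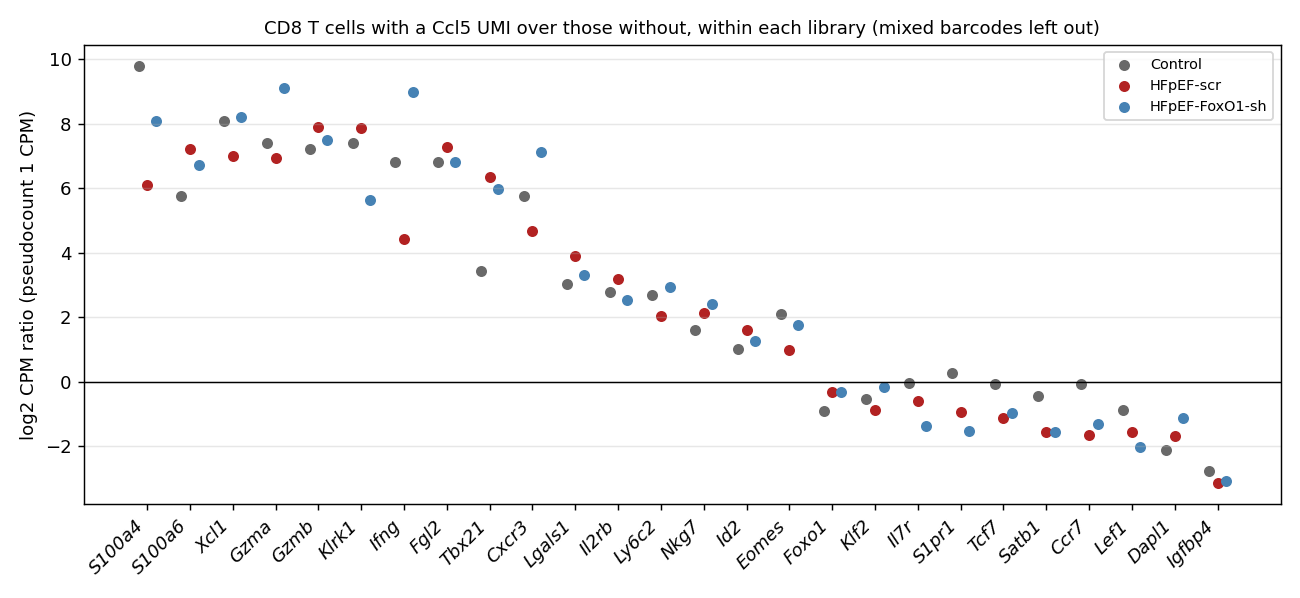
Log2 ratio of CPM (pseudocount 1 CPM) in CD8 T cells with a Ccl5 UMI over those without, within each library, mixed barcodes left out; 1 point per gene and library, with no error shown. Effector genes at the left lie above 0 in 3 of 3 libraries and Satb1, Lef1, Dapl1 and Igfbp4 at the right lie below 0 in 3 of 3; where 1 side has no UMI the height depends on the pseudocount.

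Summed over all CD8 T cells, the largest differences between HFpEF-scr and Control were in chemokine genes and in genes of other cell types. A gene counted as measured from 20 UMIs in the 2 libraries together, and as past the fold with a CPM ratio of at least 1.5 either way and an interval that excludes 1. Of 5098 measured genes, 284 (5.57%) were higher past the fold in HFpEF-scr and 76 (1.49%) lower, 7.06% in either direction. Scaling by median-of-ratios size factors, which moved the median of all genes from 0.11 to 0.00 on the log2 scale, gave 186 higher and 115 lower. Mixed barcodes carried much of this: without them 148 of 4483 genes (3.30%) were higher and 52 (1.16%) lower, 4.46% in either direction. Single cells also carried calls: without the cell richest in the gene, 39 of the 284 higher and 23 of the 76 lower genes were under the fold, an alternative added after the data had been seen. Among the genes that lost the fold without mixed barcodes was Fabp4, an endothelial and fat cell gene, at 209, 799 and 49 UMIs in 11, 14 and 8 cells, whose ratio went from 3.18 (2.73 to 3.72) to 1.15 (0.443 to 3.08). The neutrophil gene S100a9 had 222 UMIs in 2 Control cells and 1 in each other library, and the antigen presentation gene Cd74 had 197, 6 and 426 UMIs in 6, 5 and 4 cells.

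The cytotoxic effector list stood above the other genes in HFpEF-scr. Of its 29 measured members, 9 were higher past the fold (Ccl5, Ccl4, Ccl3, Id2, Klrk1, Klrc1, Xcl1, S100a6 and S100a4) and 1 was lower (Klre1), beside the 5.57% and 1.49% of all genes. The median log2 ratio was 0.42, against 0.11 over all measured genes. Without mixed barcodes 11 of 27 were higher and 1 lower, beside 3.30% and 1.16% of all genes. Gzmb, Ifng and Lgals1 joined and Klrk1 left the higher count, and the median was 0.48, against 0.08 over all genes. With at most 20% mitochondrial UMIs 5 of 23 were higher (Ccl5, Ccl4, Ccl3, Xcl1 and S100a4), 2 were lower (Klre1 and Tnf), beside 7.15% and 1.49% of all genes, and the median was -0.04. The mitochondrial limit thus moved the median to the other side of 0, while those 5 genes stayed higher in all 4 sets of cells examined (all members, without mixed barcodes, with at most 20% mitochondrial UMIs, and with both limits). With both limits 8 of 23 were higher and 1 lower, beside 3.95% and 1.45% of all genes, and the median was 0.27. Without the cell richest in the gene, Ccl5, Ccl4, Ccl3, S100a4 and Id2 were still over 1.5-fold higher, at log2 ratios of 0.80, 2.77, 2.77, 0.81 and 0.61, while S100a6 (0.52), Klrk1 (0.46) and Xcl1 (0.06) were under the fold.

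Ccl5 stood at 1503, 3358 and 2628 UMIs, or 3040, 5650 and 5293 CPM. HFpEF-scr and HFpEF-FoxO1-sh lay together above Control. The ratio of HFpEF-scr over Control was 1.86 (1.75 to 1.98), and 1.53 (1.42 to 1.65) with at most 20% mitochondrial UMIs. The share of cells with Ccl5 was alike, so the difference lay in the amount per positive cell: the median was 22.5, 38.0 and 51.0 UMIs. From HFpEF-scr to HFpEF-FoxO1-sh the summed level was 0.937-fold (0.890 to 0.986), short of the fold and in the other direction with size factors. In mm10 Ccl5 lies at 83525778 to 83530518 on the minus strand of chromosome 11.

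Ccl4 and Ccl3, chemokines that T cells release on activation, lie in the same part of chromosome 11 (83662584 to 83664683 on the plus strand and 83647844 to 83649355 on the minus strand). Ccl4 had 27 UMIs in 15 Control cells, 263 in 30 HFpEF-scr cells and 133 in 18 HFpEF-FoxO1-sh cells, or 54.6, 443 and 268 CPM. HFpEF-scr was the highest and Control the lowest. The ratios were 8.10 (5.44 to 12.5) for HFpEF-scr over Control and 0.605 (0.488 to 0.748) for HFpEF-FoxO1-sh over HFpEF-scr, both past the fold. Without mixed barcodes they were 8.76 (5.80 to 13.8) and 0.411 (0.320 to 0.523). The most Ccl4-rich cell held 22.2%, 14.4% and 32.3% of the library's UMIs.

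Ccl3 was found in few cells, with 3 UMIs in 3 Control cells, 49 in 9 HFpEF-scr cells and 41 in 9 HFpEF-FoxO1-sh cells. The ratio of HFpEF-scr over Control was 13.6 (4.38 to 68.2), from 3 UMIs on the lower side. HFpEF-FoxO1-sh over HFpEF-scr gave 1.00 (0.645 to 1.55) with all members, but 1 mixed barcode held 63.4% of the HFpEF-FoxO1-sh UMIs and without mixed barcodes the ratio was 0.325 (0.166 to 0.599). In fibroblast barcodes, where free RNA is 1 possible source of such UMIs, Ccl4 moved in the same direction. It stood there at 8.46, 16.3 and 9.03 CPM, with ratios of 1.92 (1.73 to 2.14) and 0.555. CD8 T cells without Ccl5, mixed barcodes left out, held 7, 2 and 1 UMIs of Ccl4 and 0, 0 and 0 of Ccl3. The part of free RNA in the CD8 T cell values was not tested. The summed CD8 T cell levels of Ccl4 were several times those of fibroblast barcodes in each library.

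Xcl1 had 56, 130 and 68 UMIs in 15, 23 and 19 cells, or 113, 219 and 137 CPM. HFpEF-scr was the highest, with ratios of 1.93 (1.40 to 2.69) and 0.626 (0.460 to 0.846), and 1 of its cells held 46.2% of its UMIs. Without that cell HFpEF-scr kept 70 UMIs, against 56 and 68, and neither step would be past the fold. S100a4 had 235, 540 and 281 UMIs in 22, 41 and 29 cells, or 475, 909 and 566 CPM, with ratios of 1.91 (1.64 to 2.24) and 0.623 (0.537 to 0.721). Without mixed barcodes they were 2.54 (2.13 to 3.05) and 0.536. Fibroblasts make S100a4 themselves (34.0%, 37.2% and 38.1% of their barcodes had a UMI), and the part of their free RNA was not tested. CD8 T cells without Ccl5 held 0, 9 and 35 UMIs of S100a4, and 0, 9 and 1 without mixed barcodes.

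Ifng had 131, 220 and 92 UMIs in 24, 38 and 28 cells, or 265, 370 and 185 CPM. HFpEF-FoxO1-sh was the lowest: its ratio over HFpEF-scr was 0.501 (0.388 to 0.641), past the fold. The step from Control to HFpEF-scr, 1.40 (1.12 to 1.75), was under the fold, was 1.71 (1.35 to 2.18) without mixed barcodes, and was 0.960 (0.743 to 1.24) with at most 20% mitochondrial UMIs. The transcriptional regulator Id2, which supports effector cells, stood at 307, 495 and 304 CPM (ratios of 1.61 and 0.615), and S100a6 at 672, 1074 and 703 CPM (1.60 and 0.655). With at most 20% mitochondrial UMIs both were under the fold in the first comparison (1.35 and 1.46), and Id2 also in the second (0.756).

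**Figure D3:**
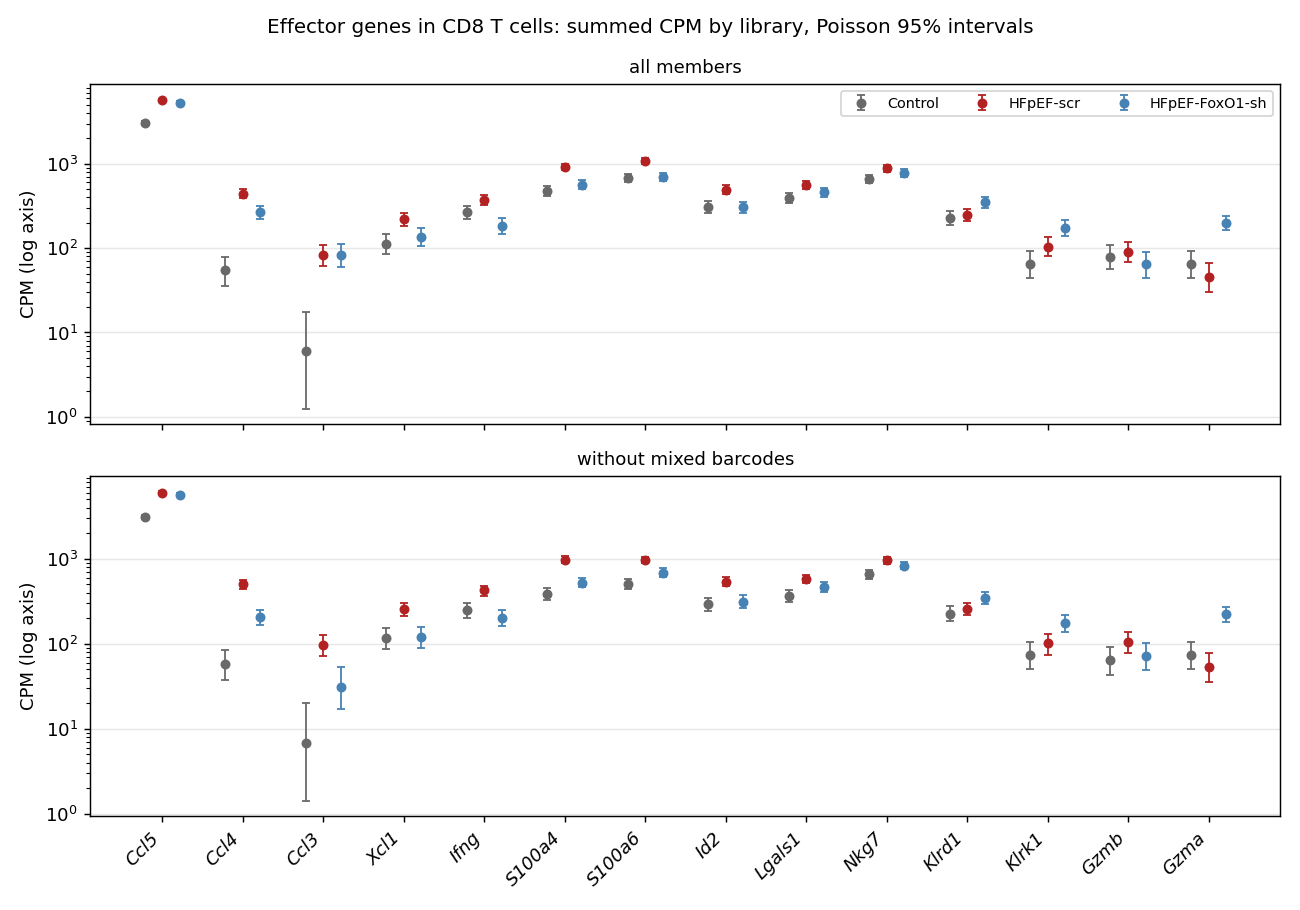
Summed CPM of 14 effector genes in CD8 T cells (vertical log axis), coloured by library, for all members (top) and without mixed barcodes (bottom); points are library sums and bars exact Poisson 95% intervals. Ccl4 reads 54.6, 443 and 268 CPM and Ccl5 3040, 5650 and 5293 CPM in the top panel, and Gzma and Klrk1 are highest in HFpEF-FoxO1-sh.

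The killing machinery itself was sparse. Gzmb had 39, 54 and 32 UMIs in 6, 8 and 11 cells, and Prf1, which encodes perforin, 16, 14 and 14 UMIs in 13, 14 and 12 cells; neither was past the fold with all members. Gzmk, a granzyme of memory cells, had 7, 19 and 15 UMIs. Gzma was found in only 2, 2 and 5 cells with 32, 27 and 99 UMIs; HFpEF-FoxO1-sh over HFpEF-scr gave 4.39 (2.84 to 6.99), and 1 cell held 60.6% of the HFpEF-FoxO1-sh UMIs. Nkg7 was broad, in 79, 116 and 82 cells at 661, 883 and 779 CPM, with ratios of 1.34 (1.16 to 1.54) and 0.882 (0.772 to 1.01). Klrk1 and Klrd1, killer-lectin receptors, were highest in HFpEF-FoxO1-sh: Klrk1 stood at 64.7, 104 and 173 CPM (ratios of 1.61 and 1.66) and Klrd1 at 227, 247 and 352 CPM (1.09 and 1.42, under the fold). Klra9, another receptor of this family, had only 11, 15 and 4 UMIs and was lowest there. At no more than 20% mitochondrial UMIs the first Klrk1 ratio was 0.966 and the second 2.27.

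From HFpEF-scr to the library labelled HFpEF-FoxO1-sh, 72 of 5082 measured genes (1.42%) were higher past the fold and 335 (6.59%) lower, 8.01% in either direction. Size factors moved the median of all genes from -0.12 to 0.01 and gave 142 higher and 223 lower, and CPM over all UMIs gave 118 higher and 253 lower. Without mixed barcodes 65 of 4467 genes (1.46%) were higher and 178 (3.98%) lower, 5.44% in either direction. Of the 72 and 335 genes with all members, 18 and 40 were under the fold without the cell richest in them. On the cytotoxic effector list 4 of 29 were higher (Gzma, Zeb2, Klrk1 and Anxa1) and 6 lower (Ccl4, Ifng, Id2, Xcl1, S100a6 and S100a4), with a median of -0.09 against -0.12 over all genes. Without mixed barcodes 2 of 28 were higher and 6 lower, beside 1.46% and 3.98% of all genes, with a median of -0.25 against -0.09. Of these, Ccl4, Ifng, Xcl1 and S100a4 were lower past the fold in all 4 sets of cells examined. Without the cell richest in the gene, Ifng (-0.83) and Id2 (-0.63) were still past a 1.5-fold difference on the log2 scale, while S100a4 (-0.56), Ccl4 (-0.50), S100a6 (-0.45) and Xcl1 (0.22) were not, nor was Klrk1 (0.51) among the higher genes. The background shares of higher and lower genes were 1.54% and 7.28% with at most 20% mitochondrial UMIs, and 1.83% and 4.00% with both limits.

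On the tissue residency list, the count in HFpEF-scr over Control depended on the set of cells. Of 12 measured members, 2 were higher past the fold with all members (Itga1 and Xcl1, beside 5.57% of all genes). Without mixed barcodes 6 were higher (Itgae, Itga1, Cxcr6, Rgs1, Runx3 and Xcl1, beside 3.30%). The medians were 0.48 and 0.61, against 0.11 and 0.08 over all genes. With at most 20% mitochondrial UMIs 4 of 12 were higher (Itgae, Itga1, Runx3 and Xcl1) and 1 lower (Gpr183), beside 7.15% and 1.49% of all genes. The median was 0.25. With both limits 5 of 11 were higher and 1 lower, beside 3.95% and 1.45% of all genes, with a median of 0.51. The counts behind them were small for Itgae, the integrin CD103, at 10, 25 and 20 UMIs, and larger for Rgs1, a brake on G protein signalling, at 103, 170 and 99. Itga1, the collagen-binding integrin CD49a, had 12, 42 and 22 UMIs, and its ratio was 2.91 (1.5 to 6.08); without mixed barcodes Control kept 1 UMI and the ratio was 17.2 (2.75 to 712). Itga1 is also made by fibroblasts (28.7%, 29.1% and 26.9% of their barcodes). In the second comparison 1 of 12 was lower with all members (Xcl1, beside 6.59% of all genes) and 2 without mixed barcodes (Rgs1 and Xcl1, beside 3.98%).

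On the virtual memory list, genes of cytokine-driven memory cells, 3 of 14 were higher in HFpEF-scr over Control (Ly6c1, Itgb1 and Xcl1) and 5 of 16 lower in HFpEF-FoxO1-sh over HFpEF-scr (Ly6c1, Itgb1, Il18r1, Il18rap and Xcl1), beside 5.57% and 6.59% of all genes. Without mixed barcodes 2 of 13 were higher in the first comparison (Cxcr3 and Xcl1), beside 3.30% of all genes. In the second, 3 of 14 were lower (Itgb1, Il18r1 and Xcl1) and 1 higher (Klra1), beside 3.98% and 1.46%. Ly6c1, also an endothelial gene, thus left both counts. Xcl1 is also on the cytotoxic effector and tissue residency lists, so its calls recur, and they rest on 1 HFpEF-scr cell as given above. Klra1, without mixed barcodes, had 9 UMIs in 2 HFpEF-scr cells and 21 in 3 HFpEF-FoxO1-sh cells. Itgb1, an integrin chain of memory cells, stood at 144, 227 and 92.6 CPM, and its second ratio was 0.408 (0.285 to 0.574), and 0.417 without mixed barcodes. Il18r1, a chain of the interleukin-18 receptor, had 31, 52 and 25 UMIs and a second ratio of 0.575 (0.342 to 0.944). The memory transcription factor Eomes (23, 32 and 21 UMIs) and Il2rb (68, 91 and 63) were past the fold in neither comparison.

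Summed over all members, the naive and central memory genes did not differ past the fold in either comparison. Of 24 measured members 0 were higher and 0 lower in HFpEF-scr over Control, and of 23 again 0 and 0 in HFpEF-FoxO1-sh over HFpEF-scr. The medians were 0.03 and -0.08, against 0.11 and -0.12 over all genes. Over all measured genes 7.06% and 8.01% were past the fold in either direction. At those shares few calls would fall on a list of this size, so counts of 0 do not set these genes apart. Tcf7 stood at 362, 345 and 375 CPM with ratios of 0.953 (0.776 to 1.17) and 1.09 (0.886 to 1.33). Ccr7 stood at 267, 244 and 226 CPM. With at most 20% mitochondrial UMIs 1 of 23 members, the gut-homing receptor Ccr9, was higher in HFpEF-scr, and with both limits it was 1 of 22. The shares of higher genes over all genes were then 7.15% and 3.95%. In the second comparison 1 of 23, the transcriptional regulator Id3, was higher with both limits, beside 1.83% of all genes.

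FoxO1 target genes of T cells gave the same count: 0 of 19 higher and 0 lower in HFpEF-scr over Control, and 0 of 18 and 0 in HFpEF-FoxO1-sh over HFpEF-scr. The shares over all genes were again 7.06% and 8.01%, so this count does not set these genes apart either. Their medians were -0.07 and -0.05, against 0.11 and -0.12 over all genes, and 0 members were past the fold in any of the 4 sets of cells. Klf2, which keeps T cells in circulation, stood at 2496, 2113 and 2006 CPM, with ratios of 0.847 (0.782 to 0.917) and 0.949 (0.873 to 1.03). Il7r, the survival receptor for interleukin-7, stood at 718, 589 and 747 CPM, with ratios of 0.820 (0.706 to 0.953) and 1.27 (1.09 to 1.47). S1pr1, the receptor for leaving tissues, stood at 210, 212 and 213 CPM. Btg1, which restrains growth, stood at 1903, 2489 and 2453 CPM, with a first ratio of 1.31 (1.20 to 1.42). In the first comparison the steps of Klf2 and Il7r (lower) and Btg1 (higher) exceeded counting error but were under the fold, as was that of Il7r (higher) in the second.

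**Figure D4:**
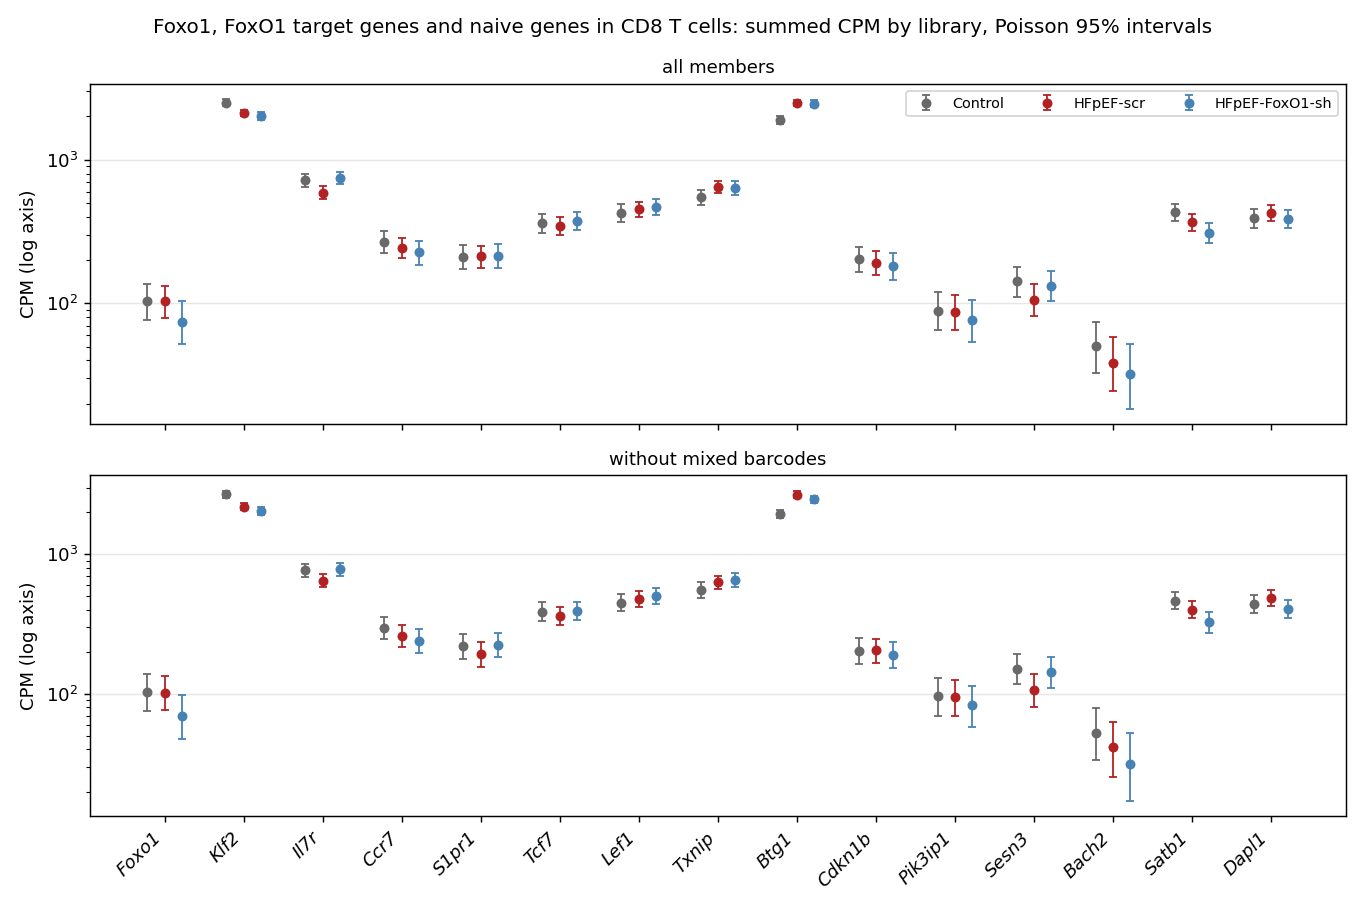
Summed CPM (vertical log axis) of Foxo1, FoxO1 target genes and naive genes in CD8 T cells of Control, HFpEF-scr and HFpEF-FoxO1-sh, for all members (top) and without mixed barcodes (bottom); points are library sums and bars exact Poisson 95% intervals. No gene shown differs past the fold in either comparison, and Foxo1 reads 103, 103 and 74.5 CPM in the top panel.

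T cell receptor signalling genes gave 4 of 23 higher in HFpEF-scr over Control (Cd5, Lcp2, Ptpn22 and Sh2d2a) and 2 of 23 lower in HFpEF-FoxO1-sh over HFpEF-scr (Themis and Sh2d2a), beside 5.57% and 6.59% of all genes. The first count was 3 of 23 without mixed barcodes (Cd5, Ptpn22 and Sh2d2a, beside 3.30%) and 2 of 21 with at most 20% mitochondrial UMIs (Cd6 and Ptpn22, beside 7.15%). Ptpn22, a phosphatase that dampens receptor signals, had 94, 200 and 114 UMIs in 60, 105 and 64 cells, with ratios of 1.77 (1.38 to 2.29) and 0.682 (0.537 to 0.863), the latter just short of the fold. Themis, which tunes receptor signals, had 74, 114 and 60 UMIs and a second ratio of 0.630 (0.453 to 0.869). Of 20 immediate early genes, 3 were higher in HFpEF-scr (Egr1, Nr4a2 and Nr4a3) and 1 lower (Atf3), beside 5.57% and 1.49% of all genes. Without mixed barcodes it was 2 of 19 (Egr1 and Nr4a3) and 1 (Ier3), beside 3.30% and 1.16%. Egr1 had 29, 89 and 48 UMIs, with ratios of 2.55 (1.66 to 4.03) and 0.646 (0.445 to 0.927). Without mixed barcodes its second ratio was 0.747 (0.494 to 1.12), within counting error, and without the HFpEF-scr cell richest in it the second log2 ratio was -0.32, under the fold. Immediate early genes also respond to tissue dissociation, whose part was not tested.

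Interferon-stimulated genes gave 0 of 27 in either direction in the first comparison, beside 7.06% of all genes. Ifi206, an interferon-induced DNA sensor, had 52, 66 and 28 UMIs and a second ratio of 0.508 (0.314 to 0.801), past the fold. MHC class I genes gave 0 of 12 past the fold in both comparisons, beside 7.06% and 8.01% of all genes. Nuclear genes of oxidative phosphorylation gave 0 of 29 in the first and 1 of 29 lower in the second (Ndufc1), beside 7.06% and 6.59% of all genes. The mitochondrially encoded genes of this list, on the same CPM scale, had a second median of -0.67, beside the lower mitochondrial shares given above. Inhibitory receptors were scarce: Pdcd1, which encodes PD-1, had 2, 9 and 2 UMIs, Lag3 0, 2 and 3, Tigit 0, 0 and 1 and Havcr2 3, 0 and 1, too few for a comparison. The proliferation list gave 2 of 13 higher (Birc5 and Ube2c) and 1 lower (Stmn1) in the first comparison, beside 5.57% and 1.49% of all genes. Without mixed barcodes 0 of 10 were higher and 3 lower (Top2a, Stmn1 and Pclaf), beside 3.30% and 1.16%, with a median of -0.39 against 0.08 over all genes. The first Stmn1 log2 ratio was 1.09, in the other direction, without the 1 Control cell richest in it. Top2a without mixed barcodes had 31 UMIs in 3 Control cells, 71.0% of them from 1 cell. Leaving that cell out kept 9 Control UMIs, against 11 for HFpEF-scr. In the second comparison 3 of 12 were lower (Birc5, Ube2c and Hmgb2), beside 6.59%, and 2 of 8 without mixed barcodes (Stmn1 and Hmgb2), beside 3.98%. For Hmgb2 with all members, the second log2 ratio was -0.29, under the fold, once the cell richest in it was left out. Its share of cells, at 67.0%, 59.7% and 72.6%, moved the other way in that step. Mki67, the cycling marker, was found in 3, 4 and 1 cells.

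The same comparison was made within the Ccl5 cells, without mixed barcodes (40, 58 and 42 cells), to read the differences in these cells alone. Ccl5 stood at 7190, 13725 and 13984 CPM, with ratios of 1.91 (1.79 to 2.04) and 1.02 (0.966 to 1.07). Ccl4 stood at 95.3, 1143 and 505 CPM and S100a4 at 889, 2204 and 1293. Ifng stood at 567, 917 and 499 CPM, with ratios of 1.62 and 0.545. Ccl5 chose these cells, and they held most UMIs of Ccl4, S100a4 and Ifng. These ratios therefore largely repeat the steps over all CD8 T cells. Cells without Ccl5 held 1, 12 and 0 UMIs of Ifng and 0, 9 and 1 of S100a4. The limit of 20% mitochondrial UMIs was not applied in this split. Among the Ccl5 cells some naive genes were lower in HFpEF-scr than in Control and others were not. Dapl1 stood at 154, 217 and 239 CPM, with a first ratio of 1.41 (0.872 to 2.32). Lef1 had a first ratio of 0.750 (0.505 to 1.11), so both were within counting error. Ccr7 had 55, 26 and 23 UMIs in these cells, or 291, 117 and 128 CPM, with a first ratio of 0.403 (0.243 to 0.654), and Tcf7 stood at 376, 217 and 250 CPM, with 0.577 (0.391 to 0.843); both were past the fold. Il7r, at 0.673 (0.520 to 0.868), and Klf2, at 0.695 (0.599 to 0.805), were lower but short of it. In the cells without Ccl5 the first ratios were 1.22 for Ccr7 and 1.20 for Tcf7, with intervals that include 1. The mitochondrial share moved with the libraries here too: 12 of 44, 27 of 63 and 4 of 45 Ccl5 cells (all members) were above 20%. In cells without Ccl5 (64, 82 and 64), Dapl1 stood at 660, 696 and 520 CPM.

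The same genes were read in the 2 most alike classes. In T cells without CD8 transcripts the ratio of HFpEF-scr over Control was 0.904 (0.856 to 0.956) for Ccl5, 0.596 (0.507 to 0.701) for Ccl4, 0.871 for Xcl1 and 0.981 for S100a4, so the higher levels of these genes in CD8 T cells were not matched there. In natural killer cells the ratios were 1.14 (1.10 to 1.19) for Ccl5, 1.12 (1.02 to 1.23) for Ccl4, 1.54 (1.38 to 1.72) for Xcl1 and 1.36 (1.14 to 1.62) for S100a4. Xcl1 was thus past the fold there too. So were Itga1 (3.03, 1.45 to 6.91), Egr1 (2.84, 1.59 to 5.36) and Rgs1 (1.65, 1.39 to 1.95), while S100a6 was lower (0.885). Itga1, Egr1 and Rgs1 had ratios of 0.664, 1.36 and 1.06 in T cells without CD8 transcripts. For HFpEF-FoxO1-sh over HFpEF-scr, Ifng was 0.654 (0.571 to 0.749) in T cells without CD8 transcripts and 0.856 in natural killer cells, and Xcl1 was 0.518 and 1.03. Rgs1, in the same order, was 0.619 and 0.493. With 1 library per group the difference between classes was not tested.

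Against T cells without CD8 transcripts of the same library, CD8 T cells held more Ccr9, Eomes, Ly6c2 and Dapl1. Of 5610 genes, 46 were higher and 314 lower at least 1.5-fold in 3 of 3 libraries; the gate set the 2 sides, so this is a description. Ccr9 stood at 38.4, 47.1 and 52.4 CPM in CD8 T cells against 3.65, 2.01 and 0.947, and Eomes at 46.5, 53.8 and 42.3 against 3.65, 9.05 and 7.58. Ly6c2 had log2 ratios of 1.12, 1.12 and 1.13 and Dapl1 of 1.38, 1.89 and 0.88. Other naive genes were closer: Lef1 had 0.28, 0.19 and 0.49, Tcf7 0.19, -0.15 and 0.22, and Il7r -0.21, -0.58 and -0.21. Il17a, the gene of interleukin-17A, was at 0 UMIs in CD8 T cells and had 65, 39 and 121 UMIs in T cells without CD8 transcripts. Against natural killer cells, Gzma stood at 64.7, 45.4 and 199 CPM in CD8 T cells against 11539, 10558 and 11791. Dapl1, Ccr7 and Themis had 0 UMIs in natural killer cells.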

How the data were processed

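Single-cell libraries of left ventricular non-myocytes were made with the 10x Genomics 3' HT v3.1 kit after enzymatic dissociation, a 70 µm strainer that removes cardiomyocytes, debris removal and red cell lysis, per the labels' protocols. The authors deposited raw UMI counts per gene and barcode, with no filter or normalization, made with Cell Ranger 6.1.2 on mm10, per the submitters' processing notes. The 3 matrices hold 96654 barcodes and 30360 genes. T cell receptor constant genes are not analysed here, and a few listed genes are not reported.

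Members were taken by the rule given in the report, on raw counts. The members and gene lists were chosen with earlier results of these data known. Of 514 listed genes 500 matched, 1 by an older symbol. Counts were summed per library and divided by non-mitochondrial UMIs (CPM), because the mitochondrial share differs between libraries. Poisson, Clopper-Pearson and conditional binomial 95% intervals are exact. Log2 ratios use a pseudocount of 1 CPM. Lists needed at least 5 measured members for a median. Gate genes and mitochondrial genes were left out of gene counts. Thinning drew 1000 UMIs per cell and left out 0 cells. Fibroblast barcodes had at least 10 Col1a1 and Col3a1 UMIs together. Natural killer cells had no CD3 UMI and at least 2 UMIs of Ncr1, Klrb1c and Klre1. Scrublet (in scanpy 1.11.5, expected rate 12%) marked 3.22%, 3.61% and 3.58% of barcodes as doublets, and none were removed.

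Named genes were the gate genes, the markers, Foxo1, up to 4 members per list with the largest differences, and the 12 strongest genes per direction in each comparison; others named beside a count were chosen after their values were seen. The fold rule was run on simulated independent Poisson library sums. These hold no single cells, so the simulation cannot show how often clustered UMIs of 1 cell carry a call. Work was done in Python 3.11.15 with numpy 2.4.6, scipy 1.17.1 and pandas 2.3.3. Gene positions are from the GENCODE annotation of mm10. Alternatives covered the mitochondrial limit, depth, gate, doublets, thinning, scaling, pseudocount and the minimum count.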

Additional observations from a re-analysis of the deposited data

Results flagged for a closer look

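A chosen set of genes, not all measured genes, was read in both CD8 T cells and T cells without CD8 transcripts. For 3 of these genes the classes moved past the fold in opposite directions between the same libraries. No share over all genes was computed. Each class has 1 library per group, so the difference between the classes was not tested. Ccl4 in HFpEF-scr over Control had a CPM ratio of 8.10 in CD8 T cells and 0.596 in T cells without CD8 transcripts. Itga1 in the same comparison had ratios of 2.91 and 0.664. Gzma in HFpEF-FoxO1-sh over HFpEF-scr had ratios of 4.39 and 0.506, with 99 UMIs in 5 CD8 T cells of HFpEF-FoxO1-sh, 60.6% of them from 1 cell.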

How the results depend on the processing

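No paired analysis was possible because each group is 1 library; for the same reason no replicate could be left out. Over 151 results and 17 settings, 1528 of 1805 alternative values stayed close, 266 moved, and 11 whose reported value was past the fold changed sign; sign changes of values under the fold were not counted. With at most 20% mitochondrial UMIs, the cytotoxic median of HFpEF-scr over Control was -0.04, and the Klrk1 log2 ratio -0.05. At most 10% left 3, 1 and 30 CD8 T cells, too few to read: the shares of barcodes had ratios of 0.251 and 10.2, the shares of T cells 0.333 and 3.63, and the Ccl5 share in the second comparison 0.467. There 51 genes were higher in the first comparison and 124 lower in the second, the cytotoxic medians were 1.81 and -1.54, the second naive median 1.43, the second FoxO1 target median 0.97, Stmn1 was 0.15 in the first and Ccl4 0.84 in the second; the ratio of shares with a naive gene could not be given.

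Counts of genes past the fold (first comparison higher and lower, second higher and lower) were 42, 15, 19 and 40 after thinning, 186, 115, 142 and 223 with size factors, and 130, 38, 33 and 156 measured from 50 UMIs. With no minimum 146 were lower in the first, and 147 higher and 518 lower in the second. CPM over all UMIs gave 118 higher in the second. Thinning moved the first cytotoxic median to 0.77 and the second Foxo1 log2 ratio to 0.34, and size factors moved the second FoxO1 target median to 0.09. Alternatives without mixed barcodes or the richest cell were chosen after seeing the data. Leaving out mixed barcodes gave 148 higher in the first comparison, 178 lower in the second and a first Hbb-bs log2 ratio of 0.62; adding the 20% limit gave 139, 155 and 0.84, and Klrk1 -0.48. Without the cell richest in the gene, first log2 ratios were 1.09 for Stmn1, 0.69 for Hbb-bs and -0.88 for Acta2, and second ones 0.22 for Xcl1 and -0.66 for Cd74. Except where a count above fixes it, the cause was not tested.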
